A study of Mus musculus with 10 samples.

Results

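The formins are actin nucleating and elongating proteins, and 9 of their genes were followed here in mouse bone marrow-derived macrophages: Diaph1, Diaph2, Diaph3, Fmnl1, Fmnl2, Fmnl3, Daam1, Fhod1 and Inf2. They were taken from a deposited RNA-seq table of 57010 gene identifiers by a list of symbols. Each symbol matched 1 row, and all 9 averaged at least 10 normalized reads over the libraries, as did 12455 genes in all. A normalized read count is a gene's reads in a library divided by 1 factor for that library, so it compares libraries but not genes of different length.

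The study compared wild-type (WT) macrophages with WASp knockout (WKO) macrophages, each left unconfined or held for 1 h at a height of 3 µm under silicone micropillars. There were 2 WT unconfined, 2 WKO unconfined, 3 WT confined and 3 WKO confined libraries, and the replicate numbers of their titles are used below. All cells came from marrow flushed from femurs and cultured for 7 days in 20 ng/mL M-CSF, so every group shared that growth factor. Ages, the form of the Was allele and the handling of the unconfined cells are not given in the sources used here, nor is whether libraries came from separate animals or cultures. The p-values therefore measure the spread between these libraries, which may be technical.

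A formin holds the growing (barbed) end of an actin filament with its dimeric FH2 domain, while its FH1 domain feeds in actin bound to profilin, so that it builds unbranched filaments. The Arp2/3 complex builds branched networks instead, and WASp, the product of Was, is its activator in blood cells. Several formins are held inactive by contact between their ends and are opened by small GTPases: Diaph1, Diaph2 and Diaph3 are opened by Rhoa and its relatives, the Fmnl proteins bind Cdc42 or Rac, and Daam1 acts with Dishevelled. Inf2 can also sever filaments and builds actin at the endoplasmic reticulum, at mitochondria and around the nucleus.

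Was itself had normalized read counts of 1308 and 1639 in the WT unconfined libraries and of 1618, 1570 and 1649 in the WT confined libraries. The WKO libraries held 154 and 141 when unconfined and 98.9, 96.9 and 125 when confined, so every library matched its label. Recovered totals were 13295701 to 19329908 reads per library, and 3 reads, taken as the detection floor, equalled 2.35 to 3.59 normalized read counts. That floor covers counting error only, because PCR copies are not independent molecules. Defining macrophage genes (8 of 8 found) were above 0 in every library, with a summed level of 196391 to 220690 in WT and of 256290 to 320603 in WKO. Levels of other cell types also moved with genotype and are given beside the Inf2 result.

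Among the members, Inf2 was the one whose transcript changed with genotype past the test in either condition, and Fmnl2 was the one that stood higher in every WKO library than in every WT library without passing it. Their promoters are shown for this reason: 250 bases before the RefSeq start site, written 5′ to 3′ on the gene's strand, with capitals marking matches of either strand to the GC box (GGGCGG) or to the core of the myeloid factor PU.1 (GAGGAA). Both windows are from GRCm38.p6, chr12:112588534-112588783 on the plus strand for Inf2 and chr2:52857618-52857867 on the plus strand for Fmnl2. The last 8 bases of the Fmnl2 window lie inside the first exon of the GENCODE M21 gene.
Inf2: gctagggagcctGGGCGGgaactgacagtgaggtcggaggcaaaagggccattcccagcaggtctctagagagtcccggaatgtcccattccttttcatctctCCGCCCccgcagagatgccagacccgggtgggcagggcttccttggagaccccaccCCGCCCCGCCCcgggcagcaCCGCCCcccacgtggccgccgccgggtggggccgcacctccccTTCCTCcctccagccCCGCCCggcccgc
Fmnl2: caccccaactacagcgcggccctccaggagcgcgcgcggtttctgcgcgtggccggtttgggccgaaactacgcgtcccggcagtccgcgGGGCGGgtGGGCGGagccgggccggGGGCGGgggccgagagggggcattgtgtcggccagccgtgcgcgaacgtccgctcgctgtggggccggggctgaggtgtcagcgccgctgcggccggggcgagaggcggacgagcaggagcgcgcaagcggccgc

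The Inf2 window held 6 GC boxes, a pair of which overlap by 1 base, and 1 PU.1 core that begins 28 bases before the start site. The Fmnl2 window held 3 GC boxes and no PU.1 core. GC content was 71.6% for Inf2 and 77.6% for Fmnl2, against a median of 52.4% over 32851 RefSeq promoter windows of the same length. Of those windows, 32.7% held a GC box and 23.3% held a PU.1 core. RefSeq windows were found for 8 of the 9 members, and the GC box was present in 7 of these 8, the exception being Diaph3. The PU.1 core was also in the windows of Diaph2 and Fmnl1, and was absent from those of Diaph3, Fmnl3, Daam1 and Fhod1. The SRF box, which occurs in 1.47% of all windows, was in none of the 8. Such matches describe the letters of these windows and say nothing about which factors bind there.

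Per kb of exon, Diaph1 had the highest mean transcript level of the family over the 10 libraries, at 648 normalized read counts per kb. Fmnl1, a formin enriched in blood cells, followed with 392 and Inf2 with 304. Fmnl3 (176) and Fhod1 (143) came next, and Diaph3, Diaph2 (86.5) and Fmnl2 (82.2) lay close together. Daam1 was the lowest member at 38.5. The ranges of several neighbours in this order overlapped. Diaph1 lay above every other member in every library, and its lowest library (524) exceeded the highest of Fmnl1 (439.8 per kb). Over the libraries the range of Inf2 overlapped those of Fmnl1 and Fmnl3, but within every library Fmnl1 lay above Inf2 and Inf2 above Fmnl3. The ranges of Fmnl3 and Fhod1 overlapped, as did those of Diaph3, Diaph2 and Fmnl2. With the longest transcript as the length, Diaph2 moved above Diaph3 (118 against 115), so their order depends on the gene model.

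**Figure D1:**
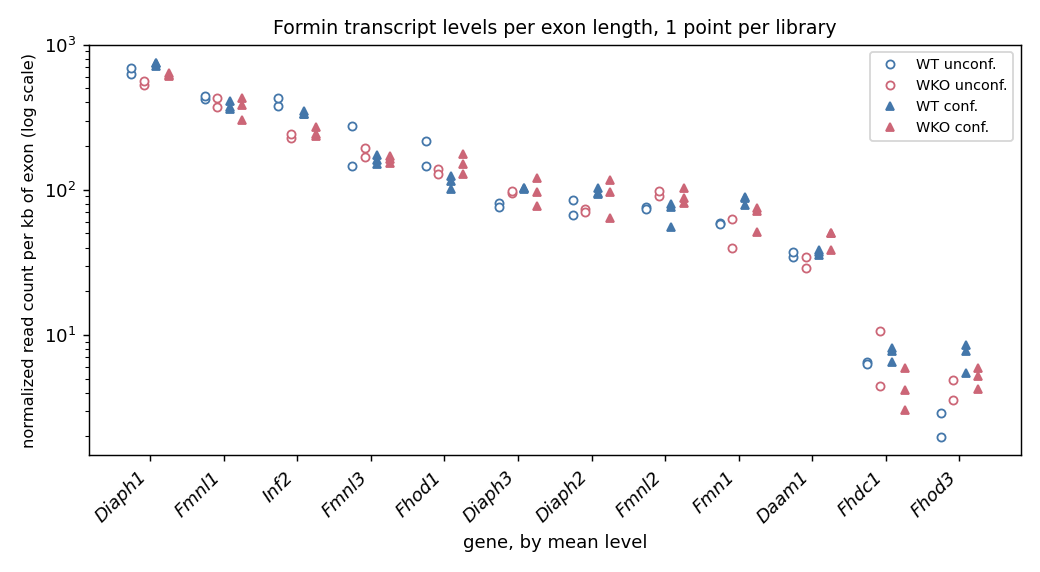
Normalized read count per kb of exon (log axis) for the 12 formins with reads enough to be tested, 1 point per library, circles for unconfined and triangles for confined, blue for WT and red for WKO. Diaph1 lies at the top with a mean of 648 and Daam1 is the lowest of the 9 members with 38.5.

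The remaining formins of the mouse genome had low levels apart from Fmn1. Fmn1, known from limb development and adherens junctions, had a mean of 67.3 per kb, between Fmnl2 and Daam1, although with the longest transcript as the length it lay above Fmnl2 (87.6 against 84.2). Fhdc1 (6.34) and Fhod3 (5.05), the latter best known from heart muscle, were low. Daam2 had 0 reads in 6 of the 10 libraries and at most 9, Fmn2 had 1 read in 1 library, and Grid2ip had none in any library. All Daam2 reads were in WKO libraries, 1 and 2 when unconfined and 7, 0 and 9 when confined, too few for the gene to be tested. A count of 0 allows up to 3 reads, or at most 3.59 normalized read counts here.

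Loss of WASp went with a lower Inf2 transcript in unconfined and in confined cells, with no other member past the test in either condition. The gene lies at chr12:112588784-112615557 on the plus strand (GRCm38, GENCODE M21). Its normalized read counts were 1841 and 2095 in WT unconfined replicates 1 and 3 and 1113 and 1190 in WKO unconfined replicates 1 and 3. Confined WT replicates 2, 3 and 6 held 1617, 1620 and 1702, and confined WKO replicates 1, 2 and 5 held 1327, 1138 and 1178. Every WKO library therefore lay below every WT library, across the conditions as well as within them. Group means were 1968 ± 180 (SD, n = 2) against 1152 ± 54.8 (SD, n = 2) when unconfined, and 1646 ± 48.5 (SD, n = 3) against 1214 ± 99.9 (SD, n = 3) when confined.

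In unconfined cells Inf2 fell to 0.586 of its WT level (95% interval 0.484 to 0.709), a log2 fold change of -0.77 with a standard error of 0.126. Limma, a linear model with moderated variances fitted to all tested genes, gave an adjusted p of 0.0441. In confined cells the ratio was 0.736 (0.63 to 0.86), a log2 fold change of -0.44 with a standard error of 0.103 and an adjusted p of 0.046. Averaged over the conditions Inf2 fell by 0.61 on the log2 scale (standard error 0.0813, ratio 0.657, limma adjusted p = 0.00182), with all 5 WKO libraries below all 5 WT libraries. The difference between the confined and the unconfined genotype effect was 0.33 (-0.03 to 0.68, unadjusted p = 0.0664, limma adjusted p = 0.999), so a smaller effect under confinement was not shown.

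Both single-condition calls of Inf2 rested close to the threshold, while the averaged one did not. The unconfined call was lost on leaving out any 1 library other than WKO confined replicates 1 or 5 (log2 fold change -0.86 to -0.68, adjusted p 0.0135 to 0.452), and with edgeR on recovered reads (adjusted p = 0.0562). The confined call was lost on leaving out any 1 library other than WKO confined replicate 1 (-0.51 to -0.40, adjusted p 0.0178 to 0.162). The averaged value passed in all 16 alternatives, from -0.65 to -0.56 with adjusted p between 0.000969 and 0.0162.

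As a share of the summed per-kb level of the 15 listed formins, which does not depend on how libraries are scaled, Inf2 took 18.3% and 18.1% in WT unconfined libraries. It took 12.3% and 13.2% in WKO unconfined libraries. The confined libraries gave 15.6%, 15.9% and 16.0% in WT and 13.7%, 11.8% and 12.6% in WKO. WT shares thus ran from 15.6% to 18.3% and WKO shares from 11.8% to 13.7%, without overlap.

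In these bulk samples, fewer cells of a type and less RNA per cell cannot be told apart. Genes of other cell types were higher in many WKO libraries beside the Inf2 difference. Stromal genes (16 of 16 found) summed to 306 to 2412 in WT and to 1345 to 13899 in WKO, the highest being WKO confined replicate 5. Of these, Pdgfra, Pdgfrb, Thbs2 and Lum were at 0 in some library. Genes of neutrophils and their progenitors (12 of 12 found) summed to 2944 to 11553 in WT and to 8049 to 31324 in WKO, with Ctsg and Ms4a3 at 0 in some library. B-lineage genes (9 of 10 found) summed to 423 to 1068 in WT and to 1834 to 6538 in WKO, with 6 of them at 0 in some library, Cd79a included. Their part in the Inf2 result was not tested. Without WKO confined replicate 5 the confined Inf2 value was -0.42 (limma adjusted p = 0.0642). That library was also the lowest WKO library for neutrophil (8049) and B-lineage genes (1834), so leaving it out does not test the part of those cell types.

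**Figure D2:**
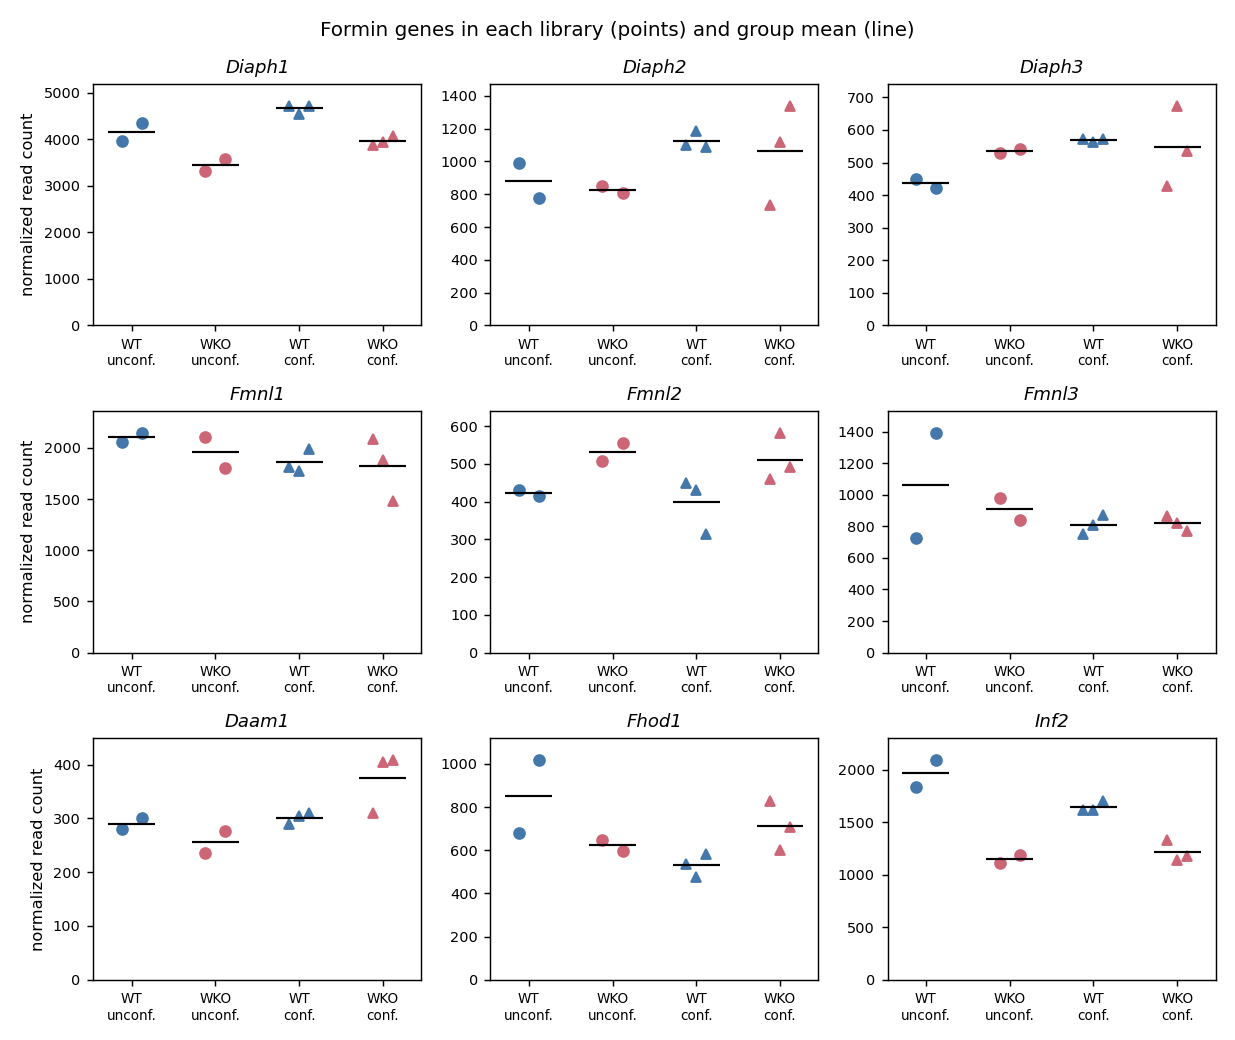
Normalized read count (linear axes from 0) of each of the 9 members in every library, as points, with the group mean as a line; circles are unconfined and triangles confined, blue WT and red WKO. Inf2 shows all WKO libraries at or below 1327 and all WT libraries at or above 1617.

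Diaph1, the most abundant member and a GTPase effector that builds long unbranched filaments, showed the same order of genotypes at a smaller size. Its normalized read counts were 3961 and 4351 in WT unconfined, 3321 and 3583 in WKO unconfined, 4710, 4548 and 4719 in WT confined, and 3879, 3932 and 4058 in WKO confined libraries. The WKO libraries lay below the WT libraries in each condition. The log2 fold change was -0.27 when unconfined (limma adjusted p = 0.439) and -0.24 when confined (adjusted p = 0.187). Averaged over conditions it was -0.25 (-0.40 to -0.10, standard error 0.0683, adjusted p = 0.055), just outside the threshold. With TMM scaling the averaged value was -0.27 and passed (adjusted p = 0.0396), as it did without WKO confined replicate 1 (0.0359) or replicate 5 (0.0365). Those were the only passes, 3 of 16 alternatives, and the adjusted p rose as high as 0.202 in the others.

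Diaph2 and Diaph3 passed in no genotype comparison. Diaph3, a formin of cytokinesis and filopodia, had 450 and 422 in WT unconfined against 530 and 543 in WKO unconfined libraries, so these groups did not overlap. In confined libraries it had 572, 563 and 572 in WT and 429, 675 and 536 in WKO, where the WKO values spanned all the WT values. Its log2 fold changes were 0.30 (limma adjusted p = 0.683) and -0.08 (adjusted p = 0.848). Diaph2 ranged over 776 to 1186 in WT and 737 to 1341 in WKO libraries, with fold changes of -0.08 and -0.12. The 3 WKO confined libraries differed more from one another for Diaph2 (log2 SD 0.442) than the typical tested gene did in that group (median 0.265).

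Of the Fmnl genes, Fmnl2, a Cdc42-bound formin of the leading edge, stood higher in WKO libraries without passing the test. Values were 431 and 415 in WT unconfined, 508 and 554 in WKO unconfined, 450, 429 and 314 in WT confined and 459, 582 and 492 in WKO confined libraries. All 5 WKO libraries lay above all 5 WT libraries, although WKO confined replicate 1 (459) and WT confined replicate 2 (450) nearly met. The log2 fold change was 0.33 when unconfined (limma adjusted p = 0.664), 0.37 when confined (adjusted p = 0.259) and 0.35 on average (0.08 to 0.62, standard error 0.125, adjusted p = 0.134). The confined value was 0.21 without WT confined replicate 6, the library with 314. The gene spans chr2:52857860-53133804 on the plus strand (GRCm38, GENCODE M21).

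Fmnl1, a formin of macrophage podosomes, ranged over 1774 to 2149 in WT and 1486 to 2111 in WKO libraries. Its log2 fold changes were -0.11 and -0.04, with 95% intervals of -0.45 to 0.24 and of -0.33 to 0.24. Fmnl3, which bundles filaments in filopodia, was 728 and 1392 in WT unconfined libraries and 752 to 977 in all others. The single high value of WT unconfined replicate 3 set its unconfined genotype value, which was -0.15 with that library and 0.32 without it, neither past the test.

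Daam1 and Fhod1 differed between genotypes in opposite directions in the 2 conditions, and neither passed the test. Fhod1, a formin that bundles filaments of stress fibres downstream of ROCK, had 682 and 1018 in WT unconfined against 649 and 596 in WKO unconfined libraries. When confined it had 535, 474 and 582 in WT against 827, 600 and 707 in WKO libraries. WKO was therefore below WT without overlap when unconfined and above WT without overlap when confined. The log2 fold changes were -0.42 (-0.87 to 0.03, limma adjusted p = 0.57) and 0.42 (0.05 to 0.78, adjusted p = 0.238). Leaving out WT unconfined replicate 3, the library with 1018, brought the unconfined value to -0.13, and leaving out WT unconfined replicate 1 brought it to -0.71. Fhod1 (chr8:105329163-105347953, minus strand, GRCm38) shares 116 exonic bases, 2.49% of its exon length, with Tmem208 on the opposite strand, and the use of strand in counting is not given in the sources used here.

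Daam1, the Dishevelled partner, had 280 and 300 in WT unconfined, 236 and 277 in WKO unconfined, 289, 304 and 310 in WT confined and 309, 405 and 409 in WKO confined libraries. In confined cells the groups met at 309 and 310, and the log2 fold change was 0.30 (-0.03 to 0.63, limma adjusted p = 0.342). The unconfined value was -0.18 (adjusted p = 0.833), and -0.07 without WKO unconfined replicate 1. The gene lies at chr12:71831078-71992333 on the plus strand.

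**Figure D3:**
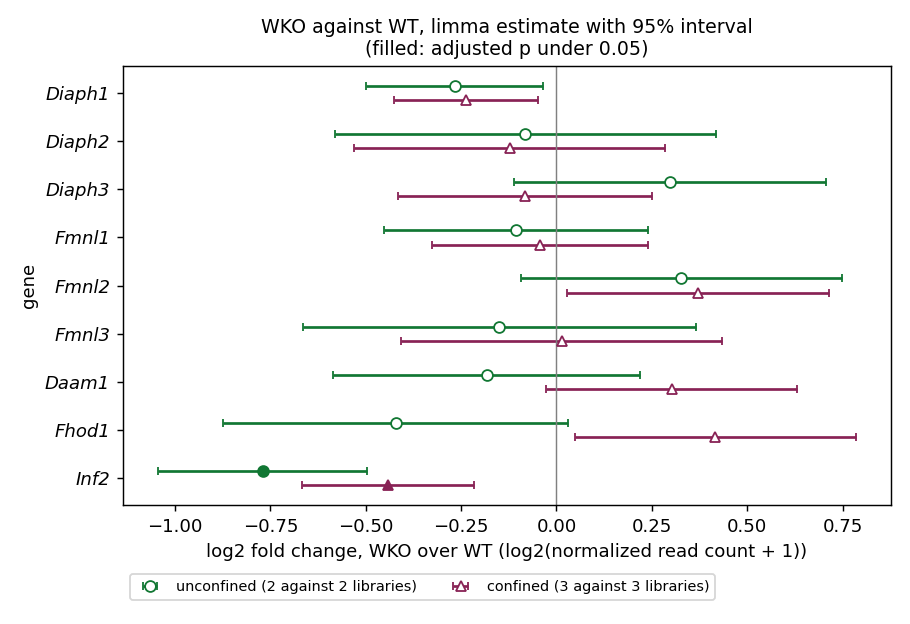
Limma log2 fold change of WKO over WT with its 95% interval for each member, green circles for unconfined and purple triangles for confined libraries, filled where the adjusted p was under 0.05. Inf2 is filled in both conditions, at -0.77 and -0.44, and Fhod1 lies at -0.42 and 0.42.

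Set against all tested genes, 1 of the 9 members passed in unconfined cells, where 0.145% of tested genes did (0.0963% in the same, lower direction). In confined cells 1 of 9 passed, where 2.59% of tested genes did (1.2% lower), and averaged over the conditions 1 of 9, where 5.57% did (2.67% lower). At an unadjusted p under 0.05 limma gave 2, 4 and 3 of the 9 members in these comparisons, beside 9.6%, 16.8% and 20.2% of tested genes. Groups did not overlap for 6 of 9 members when unconfined and for 4 of 9 when confined, beside 44.9% and 21.1% of tested genes. With all 5 libraries of each genotype, the groups were apart for Inf2 and Fmnl2, 2 of 9, beside 6.71% of tested genes. The median member log2 fold change was -0.15 when unconfined and -0.04 when confined, with medians over all tested genes of 0.002 and 0.004. The normalized read counts of the 9 members summed to 11421 to 12919 in WT libraries and to 10200 to 11154 in WKO libraries, which did not overlap. That gap rested on Diaph1 and Inf2, which were set aside with their lower WKO values already known, so this split describes the sum and tests nothing. The other 7 members summed to 5515 to 6473 in WT and to 5426 to 6084 in WKO libraries, which overlapped. In confined cells WKO had the higher mean of these 7 (5847 ± 206, SD, n = 3, against 5595 ± 120, SD, n = 3).

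Confinement for 1 h moved no member past the test, in WT, in WKO or averaged over both. The shares of tested genes that passed were 1.16%, 1.72% and 6.21%. At an unadjusted p under 0.05 limma gave 3, 1 and 3 of the 9 members, beside 12.2%, 14.1% and 21.6% of tested genes. With the genotypes pooled, confined and unconfined libraries overlapped for all 9 members, while they were apart for 7.39% of tested genes. The libraries are those of the genotype comparisons above, so the WT unconfined libraries, for example, enter both kinds of comparison.

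Within WT, all 3 Diaph genes were higher in every confined library than in every unconfined one, using the values given above for Diaph1 and Diaph3. Diaph2 had 989 and 776 when unconfined and 1102, 1186 and 1087 when confined. The log2 fold changes were 0.17 for Diaph1 (limma adjusted p = 0.538), 0.36 for Diaph2 (0.537) and 0.38 for Diaph3 (0.397). Without WT unconfined replicate 1 the Diaph1 value was 0.10, and without replicate 3 the Diaph2 value was 0.18. Fhod1, Inf2 and Fmnl1 were lower in every confined WT library than in every unconfined one. Fhod1 had the widest of these differences, -0.66 with a standard error of 0.189 and an adjusted p of 0.153. It was -0.37 without WT unconfined replicate 3, whose value of 1018 was the highest of all libraries. Inf2 had -0.25 (adjusted p = 0.401; -0.16 without WT unconfined replicate 3) and Fmnl1 -0.18 (adjusted p = 0.677). Groups did not overlap for 6 of 9 members, beside 35.9% of tested genes.

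Within WKO, Daam1 and Diaph1 were higher in every confined library than in both unconfined ones, 2 of 9 members beside 28.3% of tested genes. Daam1 had a log2 fold change of 0.54 (0.17 to 0.91, standard error 0.169, limma adjusted p = 0.165). Without WKO confined replicate 1, the lowest of its 3, this was 0.67 and passed (adjusted p = 0.0233), and without WKO unconfined replicate 1 it was 0.42 (adjusted p = 0.624). Diaph2 also passed without WKO confined replicate 1, in WKO (0.56, adjusted p = 0.0357) and on average (0.46, adjusted p = 0.00974), an omission with which 1043 instead of 214 genes were called in WKO. Diaph1 had 0.20 (adjusted p = 0.384). Inf2, already low, had 0.07 (-0.18 to 0.33, adjusted p = 0.816), and Fmnl2 had -0.06 (adjusted p = 0.912).

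**Figure D4:**
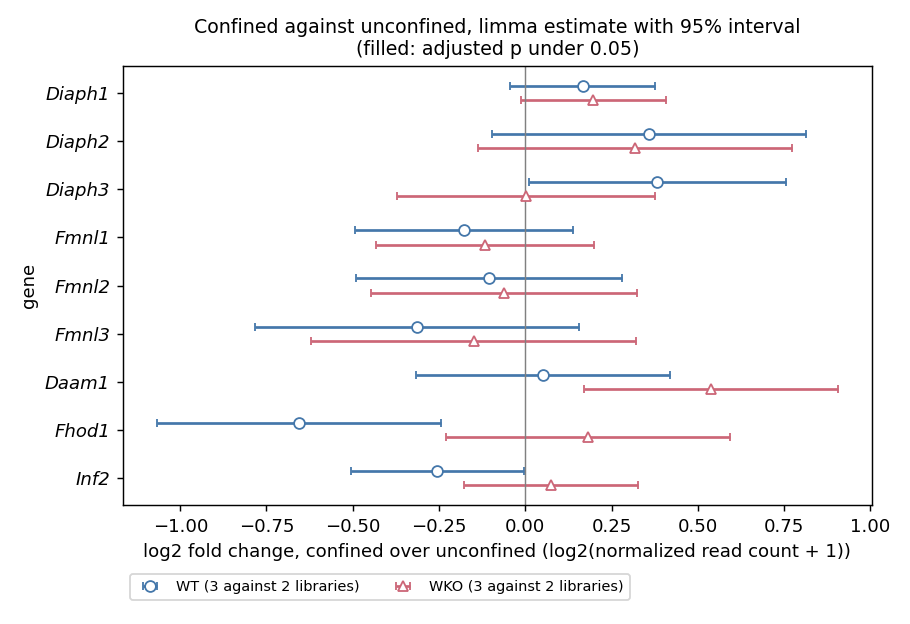
Limma log2 fold change of confined over unconfined with its 95% interval for each member, blue circles for WT and red triangles for WKO, open because no adjusted p was under 0.05. Fhod1 lies at -0.66 in WT and 0.18 in WKO, and Daam1 at 0.05 in WT and 0.54 in WKO.

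The response to confinement did not differ between genotypes past the test for any member, nor for any tested gene (0% called by limma, and 2.07%, or 258 genes, at an unadjusted p under 0.05; edgeR also called 0). Fhod1 had the widest member difference, 0.84 (0.26 to 1.42, standard error 0.267, unadjusted p = 0.0087, limma adjusted p = 0.999), and was the 1 member of 9 with an unadjusted p under 0.05. Daam1 had 0.49 (unadjusted p = 0.0648) and Diaph3 -0.38 (unadjusted p = 0.142). For Diaph1, Diaph2, Fmnl1 and Fmnl2 the estimate lay between -0.04 and 0.06.

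Among the 6 other formins, 3 had reads enough to be tested and none passed in any comparison. Fmn1 had 903 and 897 in WT unconfined, 612 and 965 in WKO unconfined, 1343, 1378 and 1202 in WT confined and 793, 1104 and 1159 in WKO confined libraries. Its averaged confinement value was 0.46 (limma adjusted p = 0.0804), which passed without WKO unconfined replicate 3 (0.63, adjusted p = 0.0356) or without WKO confined replicate 1 (0.55, adjusted p = 0.0139). Those were the only passes, 2 of 16 alternatives. Elsewhere the value went as low as 0.30 and the adjusted p as high as 0.368. Fhod3 had 20.9 and 14.4 in WT unconfined and 39.6, 62.2 and 56.2 in WT confined libraries, a log2 fold change of 1.52 (adjusted p = 0.0977). In WKO it had 35.5 and 25.8 when unconfined and 30.6, 37.9 and 43.1 when confined, where the groups overlapped. Fhdc1 ranged over 19.2 to 67.1.

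Genes that act on formins did not pass the test with genotype. Of 26 small GTPases, formin regulators and partners, 25 were tested and 0 passed in unconfined, confined or averaged genotype comparisons (3, 1 and 5 at an unadjusted p under 0.05 by limma, beside 9.6%, 16.8% and 20.2% of all tested genes). Profilin Pfn1, which delivers actin to the FH1 domain, had the smallest of these p-values, at -0.29 averaged over conditions (limma adjusted p = 0.0895). With confinement 1 of 25 passed in WKO: Rhob, an early-response small GTPase, rose from 2294 ± 74.8 (SD, n = 2) to 4881 ± 1117 (SD, n = 3). Its log2 fold change was 1.06 (standard error 0.222, limma adjusted p = 0.0344). That call was lost without WKO unconfined replicate 1 (adjusted p = 0.247) or 3 (0.278), or WT confined replicate 2 (0.0617) or 3 (0.0513). It was also lost with no filter (limma adjusted p = 0.0627) and with only the compared groups fitted (0.109), and was kept in 11 of 17 alternatives. In WT cells Rhob did not pass, with 3378 and 4717 unscaled reads when unconfined and 4122, 3451 and 7831 when confined. The WT library with 7831 also held the most reads in total among WT libraries (19216408). A rise particular to WKO was not shown, because no interaction passed. Averaged over genotypes Rhob rose by 0.70 (adjusted p = 0.0222), and Nckipsd, an SH3 protein that binds Diaph proteins, fell by 0.50 (adjusted p = 0.0267), so that 1 of 25 rose and 1 fell. These averaged calls were kept in 13 of 16 alternatives for Rhob and in 8 of 16 for Nckipsd.

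Among 17 capping, bundling, elongating and tropomyosin genes of unbranched filaments, 0 passed in unconfined cells (limma called 0.145% of tested genes), and 4 had an unadjusted p under 0.05 (9.6% of tested genes). In confined cells 1 rose and 2 fell, beside 2.59% of tested genes called, and the list's median log2 fold change was -0.03. The bundler Fscn1 rose (2.1 to 20.1 in WT confined against 34.7 to 157 in WKO confined libraries, limma adjusted p = 0.0438). The WT low of 2.1 was 2 reads in replicate 2, under the floor of 3 reads. Without that library the log2 fold change was 2.14 instead of 3.00. The WKO low of 34.7 was in WKO confined replicate 2, which also had the lowest stromal sum of that group (1345). The part of stromal cells in the Fscn1 rise was not tested. The crosslinker Actn1 fell by 0.50 on the log2 scale (adjusted p = 0.027) and the barbed-end capping gene Capg fell by 0.46 (adjusted p = 0.044). These calls were kept in 7, 8 and 5 of 17 alternatives for Fscn1, Actn1 and Capg. Averaged over conditions 1 of 17 rose and 4 fell, beside 5.57% of tested genes called. Of these averaged calls, Actn1 was kept in 16 of 16 alternatives, Tpm4 in 14, Fscn1 in 11, Capg in 7 (adjusted p up to 0.121) and Tpm1 in 3 (adjusted p up to 0.181).

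Genes regulated by actin through SRF and MRTF, the pathway that formins feed by using up free actin monomer, moved in both directions. Of 16 tested, 1 fell in unconfined cells, and in confined cells 2 rose and 4 fell, beside 0.145% and 2.59% of all tested genes called. Averaged over conditions 3 rose and 5 fell, beside 5.57% of tested genes. Vinculin, Vcl, had 2366 and 2465 in WT unconfined against 1226 and 1296 in WKO unconfined libraries, and 2543, 2425 and 2602 in WT confined against 1054, 1193 and 1422 in WKO confined libraries. It fell by 0.94 (limma adjusted p = 0.0346) and by 1.05 (adjusted p = 0.0014), beside the -0.77 and -0.44 of Inf2. The unconfined call of Vcl was lost on leaving out any 1 library other than WKO confined replicates 1 or 5. Both cytoplasmic actins fell in confined cells, Actb by 0.58 (adjusted p = 0.0316) and Actg1 by 0.55 (adjusted p = 0.0171), and so did filamin Flna, by 0.68 (adjusted p = 0.016). These calls were kept in 9, 12 and 13 of 17 alternatives. None of these genes passed in unconfined cells, where WT libraries held 106804 and 107027 unscaled reads of Actb and WKO libraries 73661 and 66296. For Actg1 these were 31937 and 31681 against 20881 and 20726, and for Flna 37584 and 31074 against 24389 and 24380. The WT libraries also held more reads in total (15531020 and 15220111 against 14319544 and 13785787), which widens these unscaled gaps. Averaged over conditions they also fell, with calls kept in 14 (Actb), 16 (Actg1) and 15 (Flna) of 16 alternatives. A fall particular to confined cells was therefore not shown. Ccn1 and Ccn2, matricellular genes also expressed by stromal cells, rose beside the higher stromal sums given above, whose part was not tested. Srf itself passed in no comparison. With confinement averaged over genotypes, Cnn2 was the 1 gene of this list that passed, and it fell by 0.51 (adjusted p = 0.0211). That call was kept in 11 of 16 alternatives, with adjusted p up to 0.14.

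Across the 10 libraries, the 3 genes whose levels followed Inf2 most closely were Alas1 (Pearson r = 0.955), Aacs (0.951) and Ckb (0.942), out of 10208 genes with a mean of at least 50. For Diaph1 they were Eaf1 (0.968), Slc35e4 (0.964) and Tes (0.961), the last an actin-associated LIM protein gene. Nedd9 (0.975), Slc16a9 (0.965) and Crim1 (0.958) were closest to Fmnl2. Fhod1 was closest to 2310061I04Rik (0.938), Med26 (0.922) and Ccdc34 (0.896), and Daam1 to Senp2 (0.940), Hmgn5 (0.932) and Stk24 (0.929). Diaph2 was followed by Qki (0.973), Diaph3 by Cfap36 (0.934), Fmnl1 by Tssc4 (0.927) and Fmnl3 by Nt5c (0.944). These are descriptions over 10 points that share the group structure and the scaling, and each is the highest of many correlations.

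Between members, Inf2 followed Diaph1 (r = 0.68) and ran against Fmnl2 (r = -0.73), and Diaph1 ran against Fmnl2 (r = -0.69). The genotype groups above already set Inf2 and Fmnl2 apart in opposite directions. Fhod1 ran against Diaph3 (r = -0.77) and with Fmnl3 (r = 0.68), whose WT unconfined replicate 3 was high for both. Diaph2 and Fmnl1 were opposed as well (r = -0.74). Reads could be split between members and other genes only to a small extent: stretches of at least 100 bases at 95% identity or more covered 0% of the longest transcript of Inf2, Diaph1, Fmnl2, Fmnl3 and Daam1, and at most 5.96%, for Diaph3.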

How the data were processed

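RNA was sequenced from 10 libraries, each from 5 ng of RNA by a poly(A)-based kit, per the labels' protocols. The submitters' processing notes name FastQC, Trim Galore, STAR and GRCm38 (mm10); the counting tool, annotation and use of strand are not given in the sources used here. The deposited values are a signal, namely each gene's normalized read count in each library. Dividing by the value of 1 read gave whole reads for 100% of values (tolerance 0.001), and the factors equalled median-of-ratios factors. Groups came from the genotype and treatment labels, which name no batch, and no library was left out.

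Tests used log2 of the normalized read count plus 1, which understates the change of low genes, with limma 3.58.1 in R 4.3.3. The model had 1 mean per group over all 10 libraries (6 residual degrees of freedom) and a mean-variance trend. Genes with a mean of at least 10 were tested, 12455 in all, with Benjamini-Hochberg adjustment over them and a threshold of 0.05. There were 7 contrasts: 4 between single groups, their interaction and 2 averages. The scripts were tested on simulated data.

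The text names all 9 members, Was, the other formins, list genes past the threshold (at most 5 per list and contrast by smallest p) and the genes with the highest Pearson r to each member; Srf and Pfn1 were named after their values were seen. The members and lists were chosen with earlier results of these data known. Exon lengths and positions came from GENCODE M21, shared sequence from blastn 2.17.0. Alternatives were TMM and upper-quartile scaling, a pseudocount of 0.5, no filter, the edgeR 4.0.16 quasi-likelihood test on recovered reads, a replicate block, a fit of the compared groups alone, and leaving out each library. Replicate libraries differed by more than sampling noise (chi-square per degree of freedom 7.56 to 78.3).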

Additional observations from a re-analysis of the deposited data

Results flagged for a closer look

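Fhod1 moved in opposite directions with genotype in the 2 conditions. Every WKO library was below every WT library when unconfined (log2 fold change -0.42) and above every WT library when confined (0.42). Groups did not overlap for 44.9% of tested genes when unconfined and 21.1% when confined, and how many of them reversed direction was not counted. By the test of the difference itself, the interaction was 0.84 with an unadjusted p of 0.0087 and a limma adjusted p of 0.999, so it did not pass. Without WT unconfined replicate 3 the unconfined value was -0.13 and the interaction 0.55.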

How the results depend on the processing

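Groups of 2 and 3 libraries limit every single-condition call, and depth limits Daam2, Fmn2 and Grid2ip. With no filter the genes called were 10 instead of 18 for WKO against WT in unconfined cells, 186 instead of 322 in confined cells and 438 instead of 694 on average, and the members called were 0 in both single conditions; the test covered more genes there. With only the compared groups fitted, the genes called were 189 (unconfined genotype), 90 (confined genotype), 455 (confinement in WT) and 33 (confinement in WKO), and 0 members for the confined genotype. EdgeR called 0 members in the unconfined genotype comparison, and TMM scaling 2 on average. Some replicate numbers are shared between groups, but deviations from the group mean correlated at -0.11 to 0.08 in the 7 same-numbered pairs. Of 8 libraries, 0 correlated best with their own number. In groups of 2 libraries these deviations mirror each other, so the 7 pairs are not independent and do not settle whether the numbers mark pairs. The replicate block gave 245 genes for the unconfined genotype and 383 for averaged confinement, and 0 members for the confined genotype (Inf2 -0.36, adjusted p = 0.348). WT confined replicate 6 and WKO confined replicate 5 carry numbers found in no other library. The block fit therefore drew no group difference from those libraries and rested on fewer libraries than the main fit. The cause of the changes in calls was not tested.

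Leaving out 1 library at a time, the genes called ran from 4 (without WT unconfined replicate 3) to 141 (without WKO confined replicate 5) for the unconfined genotype. They ran from 58 (without WT confined replicate 2) to 701 (without WKO confined replicate 1) for the confined genotype, and from 22 (without WT unconfined replicate 1) to 397 (without WKO confined replicate 5) for confinement in WT. For confinement in WKO the range was 43 (without WKO unconfined replicate 1) to 1043 (without WKO confined replicate 1), for the averaged genotype 169 (without WKO unconfined replicate 3) to 1115 (without WKO confined replicate 1), and for averaged confinement 288 (without WKO unconfined replicate 1) to 1807 (without WKO confined replicate 1). Members called ran from 0 to 1 for both single genotype comparisons, from 1 to 2 for their average, and from 0 to 2 for confinement in WKO and on average.

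Of 1044 values of single members under the alternatives, 969 kept direction and side of the threshold, 22 lost a call, 8 gained one and 45 changed sign, the last all without a call. Under other scalings, Fmnl3 was -0.012 (confined genotype, TMM), Diaph3 -0.0093 (confinement in WKO, upper quartile) and Fhod1 0.0065 (averaged genotype, upper quartile). Under the replicate block, sign changes gave Diaph3 -0.138, Fmnl1 0.0269 and Fmnl3 0.0123 for confinement in WKO, Daam1 -0.105 for confinement in WT, Fmnl1 0.0951 for the confined genotype, Fmnl2 -0.0524 for the interaction, and Fhod1 0.0447 and Fmnl3 0.0552 for the averaged genotype.

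On leaving out 1 library, values that changed sign ran as follows. For the unconfined genotype these were Diaph2 -0.26 to 0.093, Fmnl1 -0.22 to 0.0055, Fmnl3 -0.62 to 0.32, Fmn1 -0.56 to 0.10 and Fhdc1 -0.51 to 0.73. For the confined genotype they were Diaph2 -0.31 to 0.12, Diaph3 -0.25 to 0.079, Fmnl1 -0.15 to 0.095 and Fmnl3 -0.039 to 0.070. For the averaged genotype they were Diaph2 -0.20 to 0.020, Fmnl3 -0.30 to 0.17 and Fhod1 -0.15 to 0.14. For confinement in WT they were Fmnl2 -0.20 to 0.056, Fmnl3 -0.78 to 0.15 and Was -0.024 to 0.30. For confinement in WKO they were Diaph3 -0.16 to 0.16, Fmnl1 -0.23 to 0.023 and Fmnl2 -0.16 to 0.013. For averaged confinement they were Fmnl3 -0.47 to 0.0022 and Fhdc1 -0.55 to 0.069. For the interaction they were Diaph1 -0.036 to 0.099, Diaph2 -0.23 to 0.20, Fmnl1 -0.050 to 0.20, Fmnl2 -0.12 to 0.14, Fmnl3 -0.30 to 0.63 and Fmn1 -0.48 to 0.18.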
